A study of Mus musculus with 32 samples.

Results

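The 34 genes described here carry glucose across membranes, break it down to pyruvate and lactate, and sense or answer a shortage of oxygen. They were taken by symbol from a list of glycolysis and hypoxia-response genes, and all 34 were found among the 24421 genes of the deposited read counts. All 34 also passed the filter on low counts, which left 13453 genes for testing. The list holds 3 glucose transporters, 16 glycolytic enzymes, 2 enzymes that set the fructose bisphosphate signal, 5 genes of the lactate and pyruvate branch, 3 genes of the hypoxia factor and its sensors, and 5 hypoxia targets. The RNA came from macrophages sorted by flow cytometry out of the epididymal fat of C57BL/6J mice and was sequenced in bulk. One genotype lacked A20, an enzyme encoded by Tnfaip3 that restrains NF-kB signalling, in its myeloid cells (KO), and the other was wild type (WT). The mice were fed for 12 weeks, either with high-fat food (HFD) or with standard food (SD). The sort gave CD11c+ cells, which were CD11c high and CD206 low, and CD206+ cells. The 8 groups of 4 libraries were thus KO and WT cells on HFD and KO and WT cells on SD, each as CD11c+ and as CD206+ macrophages. All groups shared the strain, the tissue and the sort. The deletion was in myeloid cells at large and not in adipose macrophages alone, and its driver, like the age of the mice, is not given in the sources used here. Whether a group's 4 libraries are 4 animals is not said in the labels; the p-values therefore rest on the spread among libraries, which may be technical.

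Glycolysis turns glucose into pyruvate in the cytosol. Glucose enters through facilitative carriers, is trapped by hexokinases and is committed at phosphofructokinase, whose activity follows a sugar bisphosphate that the PFKFB enzymes make and remove. Pyruvate then enters mitochondria, where it is a substrate of pyruvate dehydrogenase, which PDK kinases inhibit. Otherwise it is reduced to lactate by lactate dehydrogenase, and the lactate leaves through monocarboxylate transporters. The factor HIF-1 alpha, encoded by Hif1a, is marked for destruction by prolyl hydroxylases while oxygen is present, and when stable it binds short hypoxia response elements and raises many of these genes. In macrophages, bacterial products and other activators of NF-kB also raise HIF-1 alpha and glycolysis, and CD11c+ macrophages of obese fat are commonly regarded as the more inflammatory population.

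The core of a hypoxia response element, ACGTG or GCGTG, was searched for on both strands in the 250 bases before each RefSeq start site (GRCm38.p6), and 32 of the 34 genes matched the table by symbol, with 46 windows among them. Slc2a3 and Ndrg1 had no entry. A core was found in 37 of the 46 windows (80.4%), beside 12679 of all 32851 windows (38.6%). Some windows of Aldoa, Eno1 and Pfkm overlap, so that the same core counts in more than 1 window. No share per gene is given. ACGTG alone was in 16.6% and GCGTG in 28.2% of all windows. CACGTG, an E-box letter run that contains ACGTG, was in 6.02%. The windows of the 34 genes were also richer in G and C, with a median of 61.0% beside 52.4% over all windows, and GCGTG and ACGTG hold a CpG. A match is a run of letters and was not tested as a binding site. The windows below belong to 3 genes called higher and 3 called lower in KO cells on HFD, in both populations, shown because a reader can see in them that both sets include windows with a core. Each is printed 5′ to 3′ on the strand of its gene, in lower case with each core in capitals; a core on the other strand reads CACGT or CACGC. Slc2a6 (chr2:27027999-27028248, minus strand) had 4 GCGTG, Slc16a3 (chr11:120948817-120949066, plus strand) 2 ACGTG, and Ankrd37 (chr8:45999851-46000100, minus strand) 2 ACGTG and 2 GCGTG, the last 2 overlapping.
Slc2a6: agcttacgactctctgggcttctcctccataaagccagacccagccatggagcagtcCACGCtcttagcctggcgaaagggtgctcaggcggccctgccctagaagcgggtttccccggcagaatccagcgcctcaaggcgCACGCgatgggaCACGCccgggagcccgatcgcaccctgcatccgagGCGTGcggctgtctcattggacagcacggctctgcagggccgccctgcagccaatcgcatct
Slc16a3: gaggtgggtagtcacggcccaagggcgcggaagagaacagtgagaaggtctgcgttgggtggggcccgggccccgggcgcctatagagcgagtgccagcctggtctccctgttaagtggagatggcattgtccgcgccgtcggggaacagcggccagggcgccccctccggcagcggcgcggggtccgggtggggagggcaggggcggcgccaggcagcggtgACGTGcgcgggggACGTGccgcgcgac
Ankrd37: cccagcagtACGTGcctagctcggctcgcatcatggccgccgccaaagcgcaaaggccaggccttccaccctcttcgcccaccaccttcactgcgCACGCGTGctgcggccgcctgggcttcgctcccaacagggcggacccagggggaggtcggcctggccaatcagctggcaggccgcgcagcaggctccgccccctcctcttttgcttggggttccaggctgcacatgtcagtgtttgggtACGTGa
Of the lower genes, Eno2 (chr6:124769674-124769923, minus strand) had no core in this window, and Pdk1 (chr2:71872974-71873223, plus strand) and Pfkfb4 (chr9:108991652-108991901, plus strand) had 1 GCGTG each. Pdk1 has a second window in the table (chr2:71874654-71874903, plus strand), which held no core and is not printed; the other 5 genes have 1 window each.
Eno2: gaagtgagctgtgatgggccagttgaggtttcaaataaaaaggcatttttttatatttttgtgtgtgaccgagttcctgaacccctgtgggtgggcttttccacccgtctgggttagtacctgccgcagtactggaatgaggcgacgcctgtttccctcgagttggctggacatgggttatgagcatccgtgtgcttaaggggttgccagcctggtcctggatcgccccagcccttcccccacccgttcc
Pdk1: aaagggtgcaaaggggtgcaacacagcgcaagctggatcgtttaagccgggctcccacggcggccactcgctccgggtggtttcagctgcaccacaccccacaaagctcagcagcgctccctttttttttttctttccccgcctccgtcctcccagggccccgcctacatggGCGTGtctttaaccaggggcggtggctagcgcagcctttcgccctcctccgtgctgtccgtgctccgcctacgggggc
Pfkfb4: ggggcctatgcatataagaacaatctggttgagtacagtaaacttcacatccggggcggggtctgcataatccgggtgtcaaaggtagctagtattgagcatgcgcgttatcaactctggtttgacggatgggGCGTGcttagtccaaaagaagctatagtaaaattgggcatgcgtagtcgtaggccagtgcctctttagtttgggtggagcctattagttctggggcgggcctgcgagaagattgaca

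Gene counts summed to between 17619638 and 23832924 per library, and 14314 to 15689 genes were detected in each. Levels are given as CPM, counts in each 1000000 counts after TMM scaling of the library sizes, and as mean ± SD of a group's 4 libraries. Differences are log2 fold changes with their SE from edgeR's quasi-likelihood test, called at a Benjamini-Hochberg adjusted p under 0.05 over all 13453 genes. Tnfaip3 lay between 167 and 474 CPM in the 16 KO libraries and between 486 and 1647 CPM in the 16 WT libraries, so the genotypes did not overlap. Itgax, which encodes CD11c, averaged 196 to 320.3 CPM in CD11c+ groups and 3.41 to 34.4 CPM in CD206+ groups, and Mrc1, which encodes CD206, averaged 453 to 633 CPM and 1458 to 1893 CPM in those groups. Among defining markers of other cells, Hba-a1 had no count in any library, and group means were at most 1.47 CPM for the neutrophil gene S100a8 and 1.04 for S100a9, 8.98 for the adipocyte gene Adipoq, 11.4 for the T cell gene Cd3e, 21.1 for the endothelial gene Cdh5 and 179 for the fibroblast gene Col1a1. Summed over the red cell list, the level was not 0 but reached 2.95 CPM in KO HFD CD206+ replicate 1. In bulk RNA, fewer cells of a type and less RNA per cell cannot be told apart, which holds for every level below. Which part of Tnfaip3 is deleted is not given in the sources used here.

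Scaled by exon length, the most abundant of the 34 transcripts were the same 4 in each of the 8 groups, Ldha, Pkm, Aldoa and Gapdh, with group means of 161 to 599.6 CPM per kilobase. These encode lactate dehydrogenase A, pyruvate kinase, aldolase A and the dehydrogenase that opens the pay-off phase of glycolysis. Pgam1 (phosphoglycerate mutase), Tpi1 (triose phosphate isomerase), Gpi1 (glucose phosphate isomerase) and Pgk1 (phosphoglycerate kinase) followed at 46.4 to 276 CPM per kilobase, with Slc2a6 above Gpi1 in KO CD11c+ cells on SD (154 and 120.0 CPM per kilobase). At the other end, Egln3, a hypoxia-induced prolyl hydroxylase, had group means of 0.107 to 0.308 CPM per kilobase, close to 0, and Eno2 was as low in several groups. Slc2a6 varied most with the group, from 7.60 CPM per kilobase in WT CD206+ cells on HFD to 154 in KO CD11c+ cells on SD. Counts summed over the 34 genes had their highest mean in KO CD11c+ cells on HFD, at 6771 to 9578 CPM per library, the top value in replicate 1. KO CD11c+ cells on SD lay within that range, at 7053 to 7887 CPM. WT CD11c+ cells held 5578 to 6386 CPM on HFD and 5531 to 7701 CPM on SD, the latter overlapping both KO ranges. CD206+ cells held less, 3841 to 4577 CPM in KO and 3772 to 3988 CPM in WT cells on HFD. Of all runs of 50 bases, the share that recurs elsewhere in the annotated transcripts was largest for 9 of the genes. It was 53.9% for Pgk1, 47.2% for Bnip3, 36.2% for Pgam1, 26% for Eno1 and 25.8% for Pkm. For Gapdh it was 25.1%, for Ldhb 21.0%, for Ankrd37 17% and for Gpi1 15.8%. Smaller shares were found for others, among them Ldha (9.26%), Pfkm (8.83%), Ndrg1 (6.02%), Hif1a (5.74%), Aldoa (5.13%), Pfkp (5.10%) and Tpi1 (4.18%). It is not known here how reads that fit several genes were counted. The entry for reads without a unique alignment was 0 in all 32 libraries, which does not tell whether such reads had been removed before counting. The level of every gene with shared runs is therefore uncertain to some degree. This bears most on Eno1, the main enolase of most tissues, which had only 3.95 to 5.35 CPM in WT SD CD206+ cells and shares sequence with Eno1b.

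**Figure D1:**
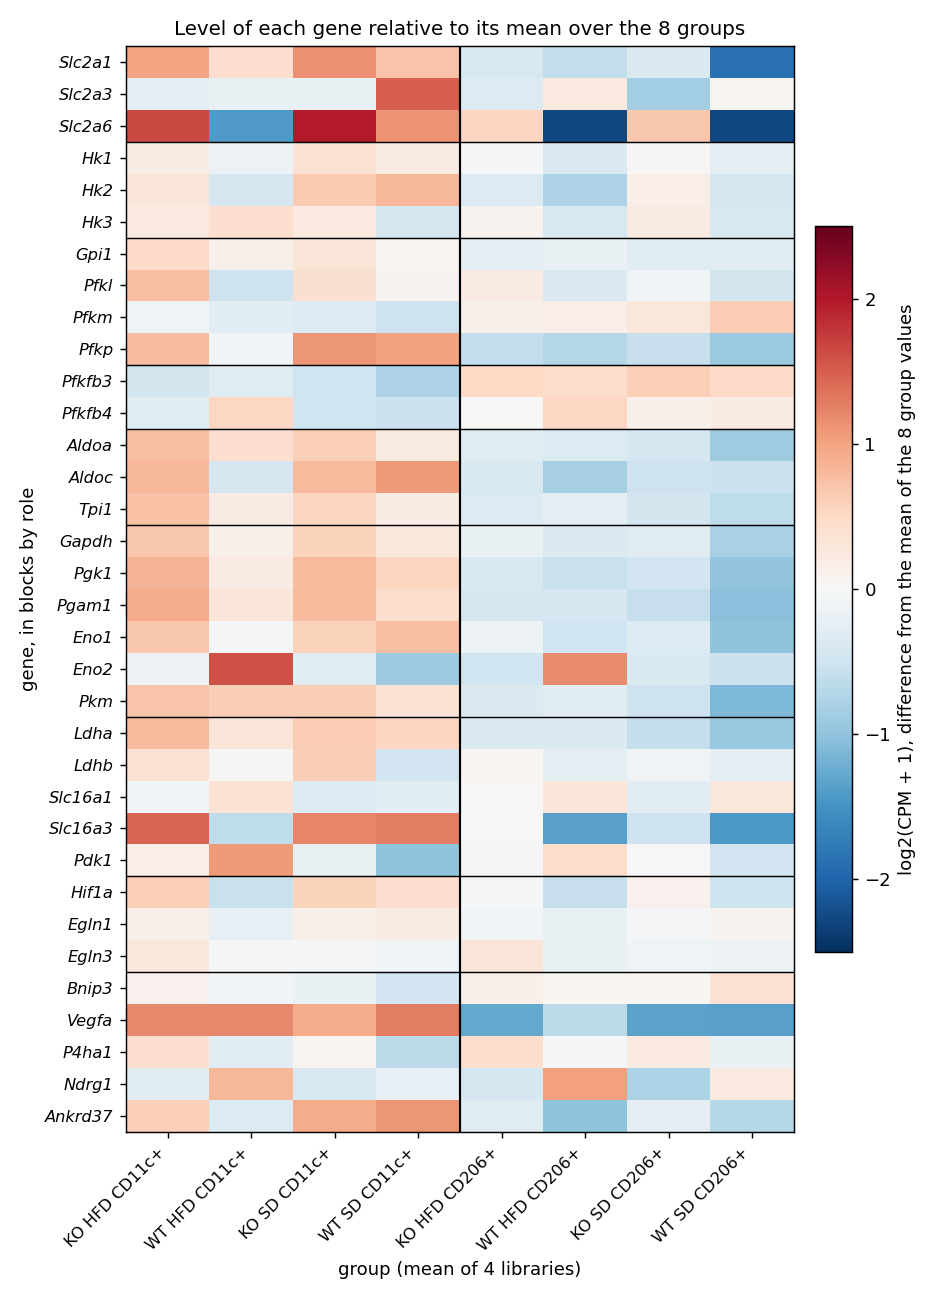
Level of each of the 34 genes in the 8 groups, as log2(mean CPM of the group + 1) less the gene's mean over the 8 group values. Columns are groups and rows are genes by role. Single libraries are not drawn. Most glycolytic enzymes were higher in CD11c+ than in CD206+ groups, and Eno2, Pdk1, Ndrg1 and Pfkfb4 were highest in the WT HFD groups.

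Loss of A20 was compared with WT first in CD11c+ cells on HFD. Of the 34 genes 19 were higher and 5 lower in KO cells, while 38% of all tested genes were called in this comparison, 18.6% higher and 19.4% lower. The median log2 fold change of the 34 was 0.44, beside -0.02 over all tested genes. The libraries of the 2 genotypes did not overlap for 21 of the 34, nor for 34.7% of all genes. Of the 16 glycolytic enzymes 12 rose, from hexokinase (Hk1, Hk2) through phosphofructokinase (Pfkl, Pfkp), aldolase (Aldoa, Aldoc) and Tpi1 to Gapdh, Pgk1, Pgam1 and Eno1, with Gpi1 between; Eno2 fell, and Hk3, Pfkm and Pkm were not called.

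Among glucose transporters the change lay in Slc2a6 (GLUT6, a carrier of lysosomal membranes in macrophages; chromosome 2, 27021363 to 27027998). It had 312, 292, 188 and 256 CPM in the 4 KO libraries, against 25.8, 31.7, 29.8 and 35.0 CPM in the 4 WT libraries. The lowest KO library was thus far above the highest WT library. The log2 fold change was 3.10 ± 0.35 (adjusted p = 3.85e-08, edgeR), or 8.56-fold. Slc2a1, which encodes the ubiquitous carrier GLUT1, was not called, at 95.5 ± 37.4 CPM in KO and 64.3 ± 4.19 CPM in WT cells (log2 fold change 0.57 ± 0.29, adjusted p = 0.129, edgeR). Slc2a3, the high-affinity carrier GLUT3, stood at 4.48 ± 1.66 CPM in KO and 4.63 ± 0.924 CPM in WT cells.

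Among the upper steps of glycolysis, Pfkl, the liver-type phosphofructokinase, had 166, 94.8, 86.6 and 83.6 CPM in KO libraries, against 39.1, 52.4, 48.7 and 36.5 CPM in WT libraries (log2 fold change 1.29 ± 0.18, adjusted p = 1.23e-06, edgeR). KO replicate 1 stood well above the other KO libraries, all of which were above WT. Aldoc, the brain-type aldolase, was low but rose: it had 9.29, 6.77, 6.06 and 6.57 CPM in KO, against 1.63, 2.29, 2.5 and 3.23 CPM in WT libraries, with no overlap (log2 fold change 1.56 ± 0.22, adjusted p = 1.65e-06, edgeR). Tpi1 had 525, 411, 343 and 338 CPM in KO and 286, 275, 268 and 287 CPM in WT libraries (0.54 ± 0.12, adjusted p = 0.00047, edgeR). Its WT libraries lay within a narrow band that every KO library exceeded.

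In the lower steps of the pathway Gapdh and Pgk1 rose, Pkm was not called and Eno2 fell. Gapdh had 906, 863, 645 and 736 CPM in KO, against 525, 521, 531 and 567 CPM in WT libraries (log2 fold change 0.56 ± 0.11, adjusted p = 0.000238, edgeR). Pgk1 had 356, 329.9, 286 and 253 CPM in KO, against 192, 169, 202 and 217 CPM in WT libraries (0.65 ± 0.10, adjusted p = 3.57e-06, edgeR). Neither gene overlapped between genotypes. Pkm, which makes the pyruvate, had 1699.5, 1519, 1202 and 1559 CPM in KO and 1302, 1199.6, 1394 and 1689 CPM in WT libraries; these ranges overlapped and Pkm was not called (0.10 ± 0.13, adjusted p = 0.569, edgeR). Eno2, the neuronal enolase and a known HIF target, went the other way: it had 1.28, 0.906, 1.53 and 1.71 CPM in KO, against 8.53, 6.25, 6.64 and 5.84 CPM in WT libraries. The KO libraries were all under the WT ones (log2 fold change -2.32 ± 0.31, adjusted p = 7.4e-07, edgeR).

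The regulators and outlets of the pathway split by direction. Slc16a3 (MCT4, the low-affinity lactate exporter of glycolytic cells; chromosome 11, 120948480 to 120960868) had 314, 198, 125 and 150.4 CPM in KO libraries, against 29.8, 62.4, 40.2 and 48.4 CPM in WT libraries. The lowest KO library was above the highest WT library (log2 fold change 2.12 ± 0.30, adjusted p = 1.5e-06, edgeR). Slc16a1 (MCT1, the widespread lactate carrier) fell, with 33.5, 21.9, 24.2 and 37.7 CPM in KO, against 39.3, 39.2, 39.0 and 41.6 CPM in WT libraries (-0.44 ± 0.15, adjusted p = 0.018, edgeR). Ldha rose by 0.48 on the log2 scale, with an adjusted p of 3e-04 (edgeR). Pdk1, a kinase that inhibits pyruvate dehydrogenase, had 50.05, 35.8, 34.5 and 34.4 CPM in KO, against 82.0, 72.1, 69.3 and 68.2 CPM in WT libraries. Its log2 fold change was -0.91 ± 0.13 (adjusted p = 1.27e-06, edgeR). Pfkfb4, a hypoxia-inducible member of the PFKFB pair, had 41.2, 52.7, 65.7 and 52.1 CPM in KO, against 103, 86.7, 94.3 and 90.1 CPM in WT libraries (-0.82 ± 0.12, adjusted p = 2.73e-06, edgeR). For Slc16a1, Pdk1 and Pfkfb4 alike the highest KO library was under the lowest WT one.

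Hif1a (chromosome 12, 73901375 to 73947530) had 443, 271, 261 and 275 CPM in KO libraries, against 139, 132, 139 and 151 CPM in WT libraries. All KO libraries were above all WT libraries, and replicate 1 was the highest (log2 fold change 1.16 ± 0.17, adjusted p = 2.7e-06, edgeR). Egln1, the main oxygen-sensing prolyl hydroxylase, rose by 0.34 (adjusted p = 0.0013, edgeR). Of the 5 hypoxia targets 2 rose and 1 fell. Ankrd37, a HIF target of little known function, had 6.67, 6.71, 6.73 and 5.29 CPM in KO, against 2.58, 4.10, 1.79 and 2.80 CPM in WT libraries (1.17 ± 0.28, adjusted p = 0.0014, edgeR). P4ha1, a collagen prolyl hydroxylase subunit, rose by 0.70 (adjusted p = 0.000227, edgeR). Ndrg1, a stress-induced gene (chromosome 15, 66929318 to 66969640), had 13.1, 12.0, 12.0 and 18.6 CPM in KO, against 32.3, 28.7, 30.2 and 32.5 CPM in WT libraries, with no overlap (-1.15 ± 0.20, adjusted p = 2.43e-05, edgeR). Bnip3, a mitophagy receptor, and Vegfa, the angiogenic growth factor, were not called; Vegfa ranged from 8.74 to 47.6 CPM in KO and from 23.0 to 29.4 CPM in WT libraries.

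6 of the 24 calls depended on single libraries. Without KO HFD CD11c+ replicate 1, which had the highest sum over the 34 genes, Gpi1, Aldoa, Hk1, Hk2 and Eno1 had log2 fold changes of 0.24, 0.22, 0.29, 0.63 and 0.70 and adjusted p of 0.109, 0.0776, 0.0929, 0.129 and 0.0613 (edgeR). Hk1 also lost its call without KO replicate 2 or 4 or WT replicate 1 (adjusted p of 0.0544, 0.11 and 0.0773, edgeR), Hk2 without KO replicate 4 or WT replicate 1, 2 or 3 (0.124, 0.0744, 0.0717 and 0.0803), Eno1 without WT replicate 3 (0.0512), and Slc16a1 without KO replicate 2 or 3 or WT replicate 4 (0.0974, 0.0754 and 0.0544).

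Markers of other cells moved with genotype in these libraries. In KO against WT CD11c+ cells on HFD, 11 of 12 dendritic cell genes, 9 of 10 monocyte genes and 9 of 10 T cell genes (the other 1 was lower) were higher, and 12 of 14 stromal genes and 2 of 8 macrophage genes were lower. The summed dendritic cell level ranged over 139 to 406 CPM in KO and 47.5 to 157 CPM in WT libraries, the monocyte level over 6056 to 10079 and 2526 to 3451 CPM, and the immediate early and handling level, with 11 of 22 genes higher and 1 lower, over 11572 to 16466 and 10080.5 to 11790.1 CPM. The summed T cell level was 58.7 to 94.0 CPM in KO and 88.4 to 111 CPM in WT libraries and the stromal level, most of it Fn1, which macrophages and monocytes also express, 3803 to 7755 and 2226 to 3621 CPM. Fn1 was on the monocyte list as well, and Nr4a1 on both the monocyte and the immediate early and handling lists. Here and in all comparisons below, the stromal and monocyte levels therefore share counts and are not separate signals. The summed levels of 2 further lists did not overlap: neutrophil genes, at 54.9 to 114 in KO and 24.8 to 31.2 CPM in WT (4 higher of 7) and adipocyte genes, at 222 to 234 in KO and 128 to 163 CPM in WT (7 higher and 1 lower of 15). Most of the neutrophil level in all groups was Csf3r, a growth factor receptor that monocytes also carry. The part of these cells in the differences above was not tested.

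**Figure D2:**
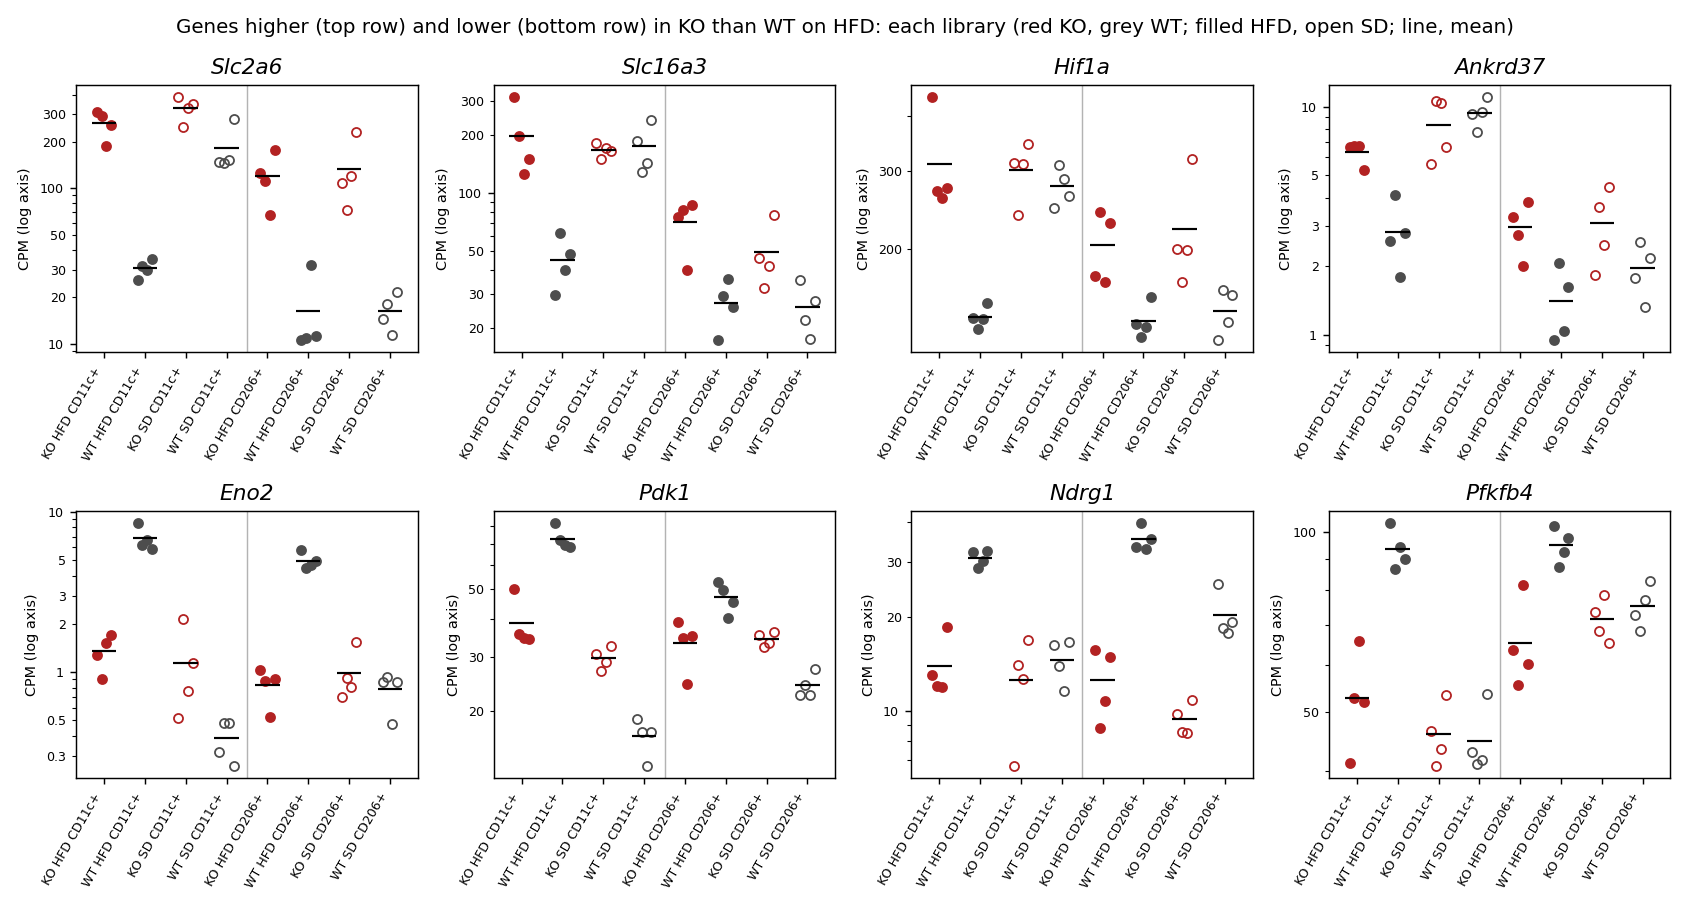
CPM (log axis) in each of the 32 libraries, by group, with KO left of WT. Drawn are some of the genes called between genotypes on HFD in both populations. Each point is a library (red KO, grey WT, filled HFD, open SD) and each line a group mean. On HFD, all KO points for Slc2a6, Slc16a3 and Hif1a lie above the WT points in both populations, and all KO points for Eno2, Pdk1 and Ndrg1 below them.

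In CD206+ cells on HFD, 8 of the 34 genes were higher and 4 lower in KO than in WT macrophages, with 21.8% of all tested genes called, 10.5% higher and 11.3% lower. Over the 34 the median log2 fold change was 0.11, beside -0.00 over all genes, and 13 of the 34 did not overlap between genotypes, as for 25.6% of all genes. Of the 16 glycolytic enzymes 3 rose (Hk3, Pfkl and Aldoc), 1 fell (Eno2) and 12 were not called. Slc2a6 had 126, 111, 67.0 and 176 CPM in KO libraries, against 10.6, 10.9, 32.3 and 11.3 CPM in WT libraries. WT replicate 3 stood above the other WT libraries, yet all KO libraries exceeded it (log2 fold change 2.89 ± 0.35, adjusted p = 2.86e-07, edgeR). Slc16a3 had 75.2, 81.4, 40.2 and 86.8 CPM in KO, against 17.4, 29.4, 35.9 and 25.8 CPM in WT libraries (1.39 ± 0.30, adjusted p = 0.000815, edgeR). Hif1a had 174, 243, 169 and 229 CPM in KO, against 135, 126, 133 and 156 CPM in WT libraries (0.57 ± 0.17, adjusted p = 0.0139, edgeR). Neither gene overlapped between genotypes, but Hif1a lost its call without KO replicate 2 or 4 (adjusted p of 0.0673 and 0.051, edgeR).

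Pfkl had 89.1, 68.1, 69.6 and 65.0 CPM in KO and 46.1, 49.3, 60.3 and 40.2 CPM in WT libraries (0.57 ± 0.18, adjusted p = 0.0186, edgeR). Ankrd37 had 3.29, 2.73, 2.01 and 3.81 CPM in KO and 0.952, 2.06, 1.04 and 1.62 CPM in WT libraries, where 1 KO library lay under the highest WT one (1.06 ± 0.30, adjusted p = 0.00963, edgeR). Aldoc was low throughout, with 2.90, 1.85, 2.32 and 2.95 CPM in KO and 2.12, 1.42, 1.53 and 1.19 CPM in WT libraries, and overlapped (0.68 ± 0.23, adjusted p = 0.0356, edgeR). The other higher genes were P4ha1 (0.50) and Hk3 (0.49), the hexokinase of myeloid cells. The enzymes that carry their step alone in this list were not called: Gapdh averaged 440.3 ± 46.7 CPM in KO, against 381 ± 18.8 CPM in WT cells, Pgk1 129 ± 11.9 and 115 ± 7.34, Tpi1 192 ± 15.5 and 208 ± 2.35, and Pkm 705 ± 72.7 and 737 ± 52.8 CPM, with adjusted p of 0.207, 0.221, 0.525 and 0.785 (edgeR). Single libraries decided some calls. Pfkl lost its own without KO replicate 1 or WT replicate 4 (adjusted p of 0.0882 and 0.0542, edgeR), Hk3 without KO replicate 1 or 4 or WT replicate 1 or 4 (0.0808, 0.0565, 0.0516 and 0.0515), and Aldoc without KO replicate 1 or 4 or WT replicate 2, 3 or 4, with an adjusted p of up to 0.108.

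The 4 lower genes were Eno2, Ndrg1, Pfkfb4 and Pdk1. Eno2 had 1.03, 0.876, 0.524 and 0.908 CPM in KO, against 5.76, 4.44, 4.64 and 4.94 CPM in WT libraries (-2.56 ± 0.32, adjusted p = 5.1e-07, edgeR). Ndrg1 had 15.6, 8.81, 10.8 and 14.9 CPM in KO, against 33.3, 39.9, 32.9 and 35.5 CPM in WT libraries (-1.50 ± 0.20, adjusted p = 9.34e-07, edgeR). All KO libraries were under all WT libraries for both. Pfkfb4 had 63.4, 55.5, 81.5 and 60.2 CPM in KO and 102, 87.3, 92.5 and 97.4 CPM in WT libraries (-0.54 ± 0.12, adjusted p = 0.00113, edgeR). Pdk1 had 39.1, 34.5, 24.5 and 35.1 CPM in KO and 52.8, 49.7, 40.2 and 45.4 CPM in WT libraries (-0.50 ± 0.13, adjusted p = 0.0045, edgeR). These ranges did not overlap either, by a smaller margin. On HFD, then, 7 genes were called higher in KO cells of both populations (Slc2a6, Pfkl, Aldoc, Slc16a3, Hif1a, P4ha1 and Ankrd37), 4 lower in both, and none in opposite directions. In KO against WT CD206+ cells on HFD, 9 of 10 T cell, 10 of 15 adipocyte and 7 of 10 monocyte genes were higher and 13 of 14 stromal genes lower. The summed adipocyte level was 292 to 410.1 CPM in KO and 152 to 211 CPM in WT libraries, the T cell level 79.7 to 152 and 34.9 to 38.8 CPM, the monocyte level 5811 to 7602 and 4054 to 4525 CPM, and the stromal level 1417 to 2182 and 1543 to 3935 CPM. Levels of 3 more lists were higher in KO without overlap: neutrophil genes, at 81.5 to 100.04 in KO and 27.2 to 51.9 CPM in WT (4 higher of 7), dendritic cell genes, at 82.9 to 151 in KO and 40.0 to 63.8 CPM in WT (2 higher of 12) and immediate early and handling genes, at 19602 to 23002 in KO and 16462 to 19006 CPM in WT (7 higher of 22). Their part was not tested.

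On SD, the genotypes were compared in the same way. In CD11c+ cells 10 of the 34 genes were higher and 1 lower in KO than in WT macrophages, with 26.8% of all tested genes called, 13.2% higher and 13.6% lower. Their median log2 fold change was 0.26, beside -0.02 over all genes, and 7 of the 34 did not overlap, as for 23.4% of all genes. WT SD CD11c+ replicate 4 was higher than the other 3 WT libraries for many of the enzymes, and this comparison moved with single libraries: 7 genes were called without KO replicate 3 or without WT replicate 3, and 7 when only the libraries of the 2 groups entered the fit. Of the 16 enzymes 6 rose (Hk3, Aldoa, Tpi1, Pgk1, Pgam1 and Eno2) and none fell. Eno2 was low in both, with 0.519, 2.14, 0.758 and 1.15 CPM in KO and 0.318, 0.482, 0.481 and 0.261 CPM in WT libraries, and did not overlap (1.54 ± 0.37, adjusted p = 0.0021, edgeR). Hk3 had 169, 128, 151 and 189.9 CPM in KO, against 74.4, 81.8, 82.3 and 162 CPM in WT libraries, of which the last lay within the KO range (0.67 ± 0.16, adjusted p = 0.00247, edgeR). Tpi1 and Pgk1 rose by 0.35 and 0.26 on the log2 scale (adjusted p of 0.0227 and 0.047, edgeR), with Tpi1 at 319 to 376 CPM in KO and 226 to 356 CPM in WT libraries and Pgk1 at 247 to 314 and 233 to 257 CPM; both overlapped. Gapdh had 806, 659.6, 736 and 682 CPM in KO and 565, 492, 560.0 and 793 CPM in WT libraries and Pkm 1401, 1289, 1441 and 1457 and 1093, 957, 1075 and 1522 CPM. Neither was called (adjusted p of 0.0905 and 0.123, edgeR).

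Slc2a6 had 386, 249.8, 328 and 349 CPM in KO, against 148, 146, 153 and 278 CPM in WT libraries. The fourth WT library overlapped the KO range, and the call was at the threshold (0.86 ± 0.32, adjusted p = 0.0484, edgeR): it was lost without KO replicate 1, 3 or 4 or WT replicate 1, 2 or 3 (adjusted p of 0.0826 to 0.115, edgeR), with no filter on low counts, under other size factors and with DESeq2. Slc2a3 had 3.74, 5.15, 3.65 and 5.83 CPM in KO, against 16.1, 20.9, 16.0 and 15.2 CPM in WT libraries, and was the 1 lower gene (-1.89 ± 0.28, adjusted p = 6.49e-06, edgeR). Ldhb, which favours the oxidation of lactate, had 7.06, 8.59, 7.49 and 7.23 CPM in KO, against 3.82, 2.65, 1.44 and 4.11 CPM in WT libraries (1.34 ± 0.30, adjusted p = 0.00117, edgeR). Both genes separated the genotypes without overlap. Pdk1 had 30.8, 27.0, 28.9 and 32.6 CPM in KO, against 18.9, 17.2, 13.3 and 17.1 CPM in WT libraries, the reverse of its direction on HFD (0.84 ± 0.13, adjusted p = 1.31e-05, edgeR). P4ha1 had 79.4, 78.3, 84.0 and 88.3 CPM in KO, against 44.4, 57.3, 48.7 and 48.1 CPM in WT libraries (0.73 ± 0.14, adjusted p = 0.000225, edgeR). Hif1a had 313, 239, 312 and 346 CPM in KO and 247, 311, 289 and 264 CPM in WT libraries and was not called (0.12 ± 0.17, adjusted p = 0.628, edgeR). Of the calls on enzymes, Pgk1 lost its own without KO replicate 1, 2 or 3 or WT replicate 2, 3 or 4 (adjusted p of 0.0664 to 0.185, edgeR), under other size factors, without the filter and with DESeq2, Pgam1 without KO replicate 3 or WT replicate 1 or 3 (0.0707, 0.0608 and 0.0724), Tpi1 without KO replicate 1 or 3 or WT replicate 2 or 3 (0.0521, 0.0771, 0.0764 and 0.0637), and Aldoa, with Tpi1, Pgk1 and Pgam1, in a fit of these groups alone (Aldoa 0.0621). Beside these, 10 of 22 immediate early and handling genes were lower and 4 higher in KO, at 12699.9 to 17502 CPM in KO and 20560.5 to 26555 CPM in WT libraries, 7 of 12 endothelial genes were lower, at 94.5 to 129 and 108 to 219.6 CPM, and 5 of 12 dendritic cell genes higher and 2 lower, at 164 to 392 and 348 to 761 CPM. The genotypes did not overlap in the summed levels of 5 other lists: macrophage genes, at 18628 to 21685 in KO and 31543 to 35750.0 CPM in WT (4 higher and 1 lower of 8), monocyte genes, at 8726 to 11583 in KO and 13401 to 23158 CPM in WT (4 higher and 2 lower of 10), stromal genes, at 6275 to 8255 in KO and 9019 to 18314 CPM in WT (2 lower of 14), neutrophil genes, at 61.6 to 96.6 in KO and 9.46 to 14.9 CPM in WT (1 higher of 7) and adipocyte genes, at 231 to 346 in KO and 162 to 188 CPM in WT (2 higher and 1 lower of 15). The macrophage and monocyte sums were lower in KO although more of their genes were called higher than lower. Their part was not tested.

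In CD206+ cells on SD, 14 of the 34 genes were higher and 3 lower in KO than in WT macrophages, with 24.5% of all tested genes called, 11.8% higher and 12.7% lower. Over the 34 the median was 0.36, beside -0.03, and 18 of the 34 did not overlap, as for 27.6% of all genes. Of the 16 enzymes 7 rose and none fell (Hk3, Aldoa, Gapdh, Pgk1, Pgam1, Eno1 and Pkm). Slc2a6 had 109, 73.0, 120.1 and 231 CPM in KO, against 14.3, 18, 11.4 and 21.6 CPM in WT libraries, with no overlap (3.03 ± 0.36, adjusted p = 1.82e-07, edgeR). Slc2a1 had 23.8, 22.9, 25.6 and 74.1 CPM in KO, against 15.5, 11.2, 10.1 and 12.4 CPM in WT libraries (1.57 ± 0.31, adjusted p = 0.000389, edgeR). KO replicate 4 stood far above the other KO libraries, which were themselves above WT. Slc2a3 had 2.88, 2.24, 1.85 and 3.06 CPM in KO, against 6.89, 4.72, 6.62 and 4.75 CPM in WT libraries (-1.20 ± 0.29, adjusted p = 0.0031, edgeR).

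Gapdh had 378, 377, 414 and 438 CPM in KO, against 283, 257, 282 and 303 CPM in WT libraries (0.51 ± 0.11, adjusted p = 0.00113, edgeR). Pgk1 had 110.5, 119, 117 and 135 CPM in KO, against 85.6, 90.3, 84.2 and 78.3 CPM in WT libraries (0.51 ± 0.10, adjusted p = 0.00025, edgeR). Pkm had 603, 537, 647 and 757 CPM in KO, against 424, 376, 421 and 450.4 CPM in WT libraries (0.61 ± 0.13, adjusted p = 0.000663, edgeR). All 3 separated the genotypes. Tpi1 averaged 176 ± 11.4 CPM in KO, against 155 ± 9.97 CPM in WT cells and was not called (adjusted p = 0.263, edgeR). Hk3 had 164, 151, 163 and 151 CPM in KO and 90.4, 82.8, 108 and 124 CPM in WT libraries (0.63 ± 0.16, adjusted p = 0.00488, edgeR). Hif1a had 200.2, 168, 199 and 320.5 CPM in KO and 124, 162, 137 and 157 CPM in WT libraries, and Slc16a3 46.4, 32.4, 42.1 and 77.3 and 35.6, 22.0, 17.6 and 27.8 CPM. Both rose (Hif1a 0.61 ± 0.17, adjusted p = 0.00778; Slc16a3 0.94 ± 0.30, adjusted p = 0.0196, edgeR), but without KO replicate 4 the adjusted p were 0.0569 and 0.111, and Slc16a3 was also lost without WT replicate 3 (0.0766). Eno1, with 5.45, 6.66, 6.85 and 13.9 CPM in KO and 4.78, 5.04, 3.95 and 5.35 CPM in WT libraries, lost its call without KO replicate 4 (log2 fold change 0.44, adjusted p = 0.289, edgeR) or WT replicate 1, 2 or 3 (0.0681, 0.059 and 0.111), and P4ha1 without KO replicate 2 or 4 or WT replicate 1 or 3 (adjusted p of 0.0536 to 0.0698).

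Ndrg1 had 9.82, 8.56, 8.52 and 10.9 CPM in KO, against 25.4, 18.4, 17.8 and 19.2 CPM in WT libraries (-1.10 ± 0.20, adjusted p = 0.000127, edgeR). Slc16a1 had 26.8, 26.3, 26.3 and 22.7 CPM in KO, against 42.8, 33.5, 35.3 and 39.3 CPM in WT libraries (-0.56 ± 0.15, adjusted p = 0.00543, edgeR). For both, every KO library was under every WT library. Pdk1 rose by 0.50 (adjusted p = 0.00474, edgeR), as in CD11c+ cells on SD. On SD 7 genes were called higher in KO cells of both populations (Slc2a6, Hk3, Aldoa, Pgk1, Pgam1, Pdk1 and P4ha1) and 1 lower in both (Slc2a3). In KO against WT CD206+ cells on SD, 10 of 12 endothelial genes were lower and none higher, with summed levels of 201 to 242 CPM in KO and 376 to 457 CPM in WT libraries, and 8 of 10 T cell genes were higher, with 102 to 156 and 10.6 to 18.7 CPM. Summed levels also separated KO from WT libraries for neutrophil genes, at 85.8 to 112 in KO and 36.2 to 53.4 CPM in WT (2 higher of 7), monocyte genes, at 5468 to 6592 in KO and 7647 to 9996 CPM in WT (5 higher and 1 lower of 10) and dendritic cell genes, at 138 to 161 in KO and 264 to 351 CPM in WT (2 higher and 3 lower of 12). Their part in these differences was not tested.

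**Figure D3:**
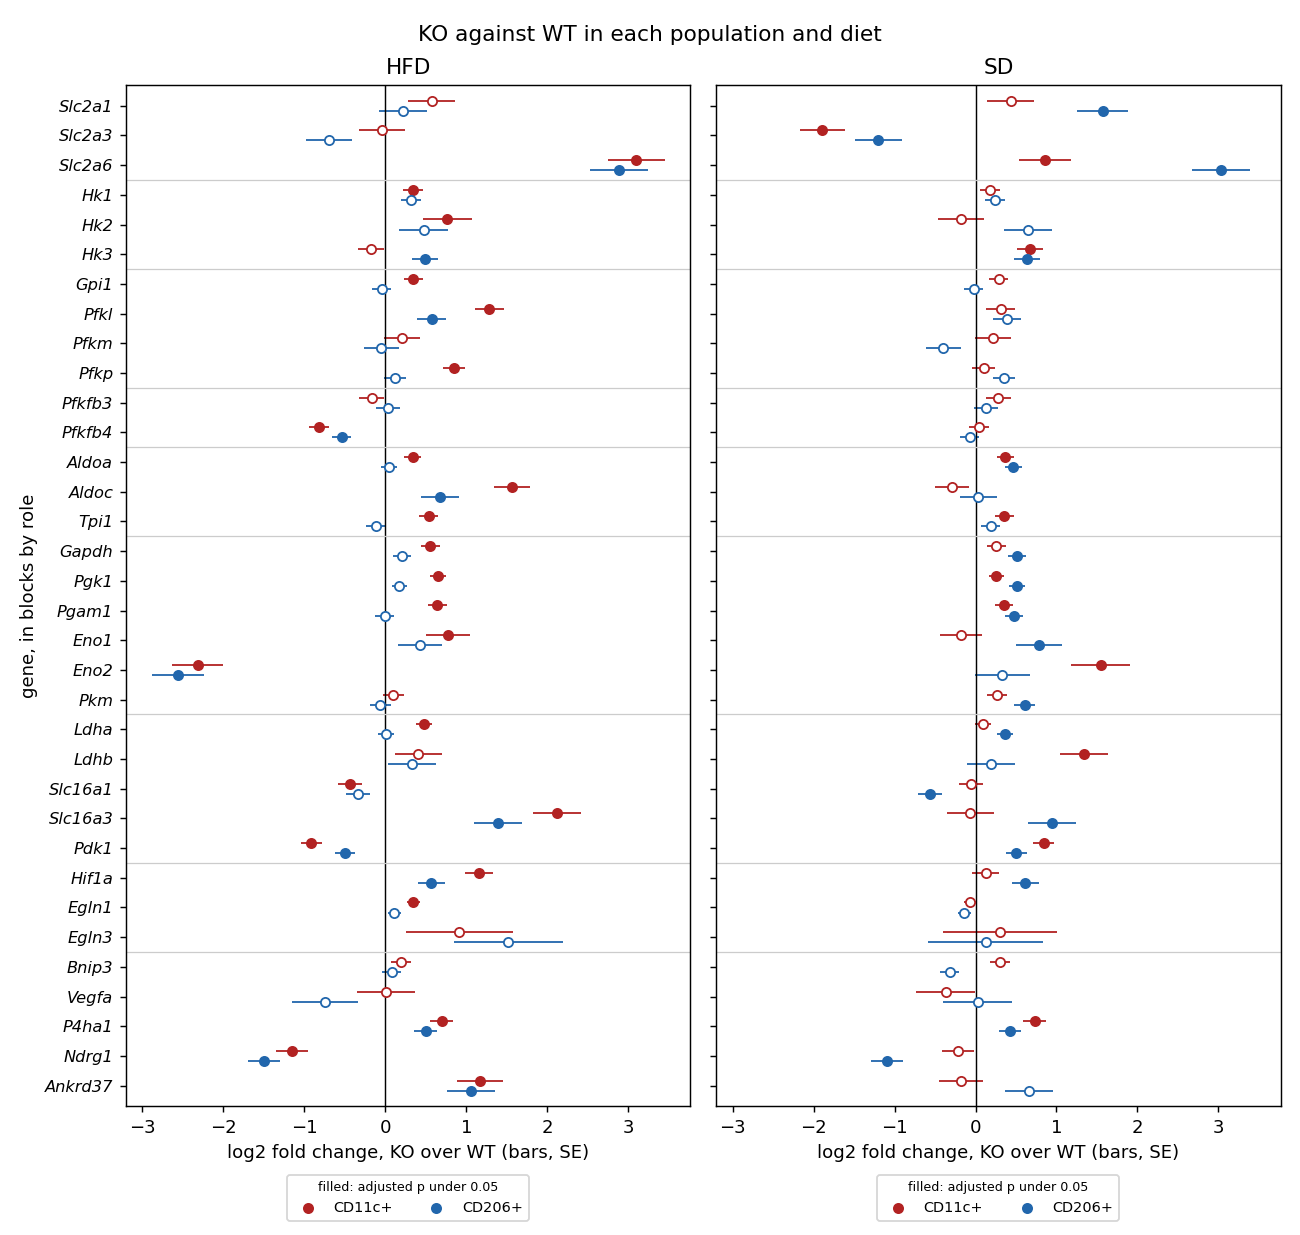
Log2 fold change of KO over WT for each of the 34 genes in both populations and on both diets; bars are SE and filled symbols mark an adjusted p under 0.05 (edgeR). Slc2a6 lies to the right of 0 in all 4 comparisons, and Eno2 and Pdk1 lie left of 0 on HFD and right of it on SD.

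Whether the effect of the genotype differed between the diets was tested as an interaction, the KO to WT difference on HFD less that on SD. In CD11c+ cells 11 of the 34 genes had a higher and 5 a lower value on HFD, with 28.8% of all genes called. Aldoc (1.85 ± 0.31, adjusted p = 2.68e-05), Slc16a3 (2.18 ± 0.41, 0.000139), Slc2a6 (2.24 ± 0.46, 0.00042) and Slc2a3 (1.85 ± 0.40, 0.000692) had the smallest adjusted p among those with a higher value (edgeR). Slc2a6 was higher in KO on both diets, by more on HFD. Aldoc and Slc16a3 were higher in KO on HFD and not called on SD (log2 fold change -0.29 ± 0.21 and -0.06 ± 0.29). Slc2a3 was lower in KO on SD and was not called on HFD. Pdk1 (-1.75 ± 0.18, adjusted p = 2.68e-08), Eno2 (-3.86 ± 0.48, 4.36e-07), Pfkfb4 (-0.87 ± 0.17, 0.000249) and Hk3 (-0.85 ± 0.23, 0.00571) led the others (edgeR). Eno2 and Pdk1 were lower in KO on HFD and higher in KO on SD. In CD206+ cells none had a higher and 5 a lower value (Slc2a1, Pgam1, Eno2, Pkm and Pdk1), with 11.9% of all genes called, led by Eno2 (-2.89 ± 0.47, adjusted p = 0.000105), Pdk1 (-1.0 ± 0.18, 0.000387), Pkm (-0.67 ± 0.18, 0.0132) and Slc2a1 (-1.35 ± 0.43, 0.0385; edgeR). That count fell to 3 without KO HFD CD206+ replicate 2, KO SD CD206+ replicate 4, or WT SD CD206+ replicate 2 or 3. Both interactions share libraries with the comparisons by diet.

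The diets were compared within each genotype. In KO macrophages none of the 34 genes was called between HFD and SD in either population, and 2 of the 34 did not overlap in each, as for 3.31% of all genes in CD11c+ and 4.3% in CD206+ cells. In KO cells 0.00743% of all genes (1 gene) were called in CD11c+ and 0% in CD206+ cells (edgeR). At an unadjusted p under 0.05 there were 5 of the 34 (1221 of all genes) in CD11c+ and 2 (831 of all genes) in CD206+ cells, and DESeq2 called 0 of the 34 in each, where 1 had no adjusted p, with 51 and 18 genes over all. In KO cells the smallest adjusted p was 0.322, for Pdk1 in CD11c+ cells, at 38.7 ± 7.59 CPM on HFD, against 29.8 ± 2.43 CPM on SD. In KO CD11c+ cells Slc2a6 stood at 262 ± 54.4 CPM on HFD, against 328 ± 57.6 CPM on SD, and Hif1a at 313 ± 86.9 and 303 ± 45.3 CPM. A p above the threshold does not show that the diets were alike.

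In WT CD11c+ cells, 9 of the 34 genes were higher and 14 lower on HFD than on SD, with 46.3% of all tested genes called, 23.8% higher and 22.6% lower. The median log2 fold change of the 34 was -0.11, beside 0.01 over all genes, and 19 of the 34 did not overlap between the diets, as for 40.2% of all genes. Of the 16 enzymes 2 rose (Hk3 and Eno2) and 7 fell (Hk1, Hk2, Pfkl, Pfkp, Aldoc, Pgk1 and Eno1). The values of each library are those given with the genotype comparisons. Eno2 averaged 6.81 ± 1.19 CPM on HFD and 0.386 ± 0.114 CPM on SD, the widest change among the 34 (4.11 ± 0.36, adjusted p = 1.14e-10, edgeR). Pdk1 averaged 72.9 ± 6.30 CPM on HFD, against 16.6 ± 2.36 CPM on SD (2.13 ± 0.13, adjusted p = 1.96e-13, edgeR). Ndrg1 had 32.3, 28.7, 30.2 and 32.5 CPM on HFD, against 16.2, 13.9, 11.5 and 16.6 CPM on SD (1.09 ± 0.20, adjusted p = 3.19e-05, edgeR). None of these 3 overlapped. Pfkfb4 had 103, 86.7, 94.3 and 90.1 CPM on HFD, against 42.9, 41.0, 41.6 and 53.7 CPM on SD (1.07 ± 0.12, adjusted p = 2e-08, edgeR). Slc16a1 averaged 39.8 ± 1.2 and 24.8 ± 4.71 CPM (0.68 ± 0.15, adjusted p = 0.000352, edgeR) and Hk3 179.9 ± 20.3 and 100.1 ± 41.2 CPM (0.85 ± 0.16, adjusted p = 8.31e-05, edgeR).

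The 14 genes that fell on HFD in WT CD11c+ cells ran from glucose carriers to Hif1a. Slc2a6 averaged 30.6 ± 3.85 CPM on HFD, against 181 ± 64.8 CPM on SD (-2.57 ± 0.35, adjusted p = 3.49e-07, edgeR), and Slc16a3 45.2 ± 13.7, against 175 ± 49.3 CPM (-1.95 ± 0.30, adjusted p = 2.99e-06, edgeR). The comparison of KO with WT cells on HFD uses the same WT HFD libraries. Slc2a3 averaged 4.63 ± 0.924 CPM on HFD, against 17 ± 2.60 CPM on SD (-1.88 ± 0.28, adjusted p = 2.29e-06, edgeR). Aldoc had 1.63, 2.29, 2.5 and 3.23 CPM on HFD, against 8.46, 9.07, 7.43 and 9.06 CPM on SD, and Hk2, the inducible hexokinase, 11.9, 12.4, 11.5 and 16.9, against 35.8, 29.3, 27.8 and 39.0 CPM. No HFD library reached an SD one for either gene (Aldoc -1.81 ± 0.22, adjusted p = 7.7e-08; Hk2 -1.32 ± 0.30, adjusted p = 0.000525, edgeR). Ankrd37 had 2.58, 4.10, 1.79 and 2.80 CPM on HFD, against 9.32, 7.77, 9.52 and 11 CPM on SD (-1.73 ± 0.28, adjusted p = 7.43e-06, edgeR). Hif1a averaged 140.2 ± 7.72 CPM on HFD, against 278 ± 27.9 CPM on SD (-0.99 ± 0.17, adjusted p = 1.62e-05, edgeR). Of the steps with a single gene, Pgk1 fell by 0.33 (adjusted p = 0.0066, edgeR), while Gapdh (-0.17), Tpi1 (0.02) and Pkm (0.27) were not called.

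Without WT SD CD11c+ replicate 4, the adjusted p was 0.0548 for Pfkl, 0.131 for Eno1, 0.108 for Hk1 and 0.128 for Ldha (edgeR). Ldha also lost its call without WT SD replicate 1 or 3 or WT HFD replicate 1 or 3 (0.154, 0.0942, 0.0595 and 0.0525), Hk1 without WT SD or WT HFD replicate 1 (0.0929 and 0.0677), Pfkfb3 and Bnip3 without WT HFD replicate 3 (0.0866 and 0.057), and P4ha1 without WT HFD replicate 3 or 4 or WT SD replicate 1 (0.114, 0.0697 and 0.0695). In WT CD11c+ cells on HFD against SD, 16 of 22 immediate early and handling genes were lower, with summed levels of 10080.5 to 11790.1 CPM on HFD and 20560.5 to 26555 CPM on SD. 6 of 10 monocyte genes were lower and 1 higher, with 2526 to 3451 and 13401 to 23158 CPM, 10 of 14 stromal genes were higher and 2 lower, with 2226 to 3621 and 9019 to 18314 CPM, and all 6 mast cell genes tested were higher, with 11.9 to 42.9 and 1.02 to 1.5 CPM. The diets did not overlap in 4 other lists either: dendritic cell genes, at 47.5 to 157 on HFD and 348 to 761 CPM on SD (5 lower of 12), T cell genes, at 88.4 to 111 on HFD and 30.1 to 44.4 CPM on SD (1 higher and 2 lower of 10), macrophage genes, at 20682 to 23570.1 on HFD and 31543 to 35750.0 CPM on SD (5 higher and 3 lower of 8) and neutrophil genes, at 24.8 to 31.2 on HFD and 9.46 to 14.9 CPM on SD (1 higher of 7). Their part in the differences by diet was not tested.

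In WT CD206+ cells, 12 of the 34 genes were higher and 1 lower on HFD than on SD, with 27.7% of all tested genes called, 14.2% higher and 13.5% lower. Their median log2 fold change was 0.12, beside -0.02 over all genes, and 16 of the 34 did not overlap, as for 31.4% of all genes. Of the 16 enzymes 7 rose and none fell: Aldoa, Tpi1, Gapdh, Pgk1, Pgam1, Eno2 and Pkm. Eno2 averaged 4.94 ± 0.580 CPM on HFD, against 0.784 ± 0.207 CPM on SD (2.65 ± 0.33, adjusted p = 4.08e-07, edgeR). Slc2a1 had 34.2, 32.3, 29.4 and 26.4 CPM on HFD, against 15.5, 11.2, 10.1 and 12.4 CPM on SD (1.31 ± 0.31, adjusted p = 0.00209, edgeR). Pkm had 709.6, 686, 745 and 807 CPM on HFD, against 424, 376, 421 and 450.4 CPM on SD (0.82 ± 0.13, adjusted p = 1.52e-05, edgeR). The diets separated without overlap for all 3. Pgam1 had 172, 192, 206 and 198 CPM on HFD, against 131, 120.2, 113 and 129.8 CPM on SD (0.64 ± 0.12, adjusted p = 0.000115, edgeR). Gapdh averaged 381 ± 18.8 and 281 ± 18.9 CPM (0.44 ± 0.11, adjusted p = 0.00421, edgeR), and Tpi1 208 ± 2.35 and 155 ± 9.97 CPM (0.43 ± 0.12, adjusted p = 0.0061, edgeR). Pgk1, Pdk1 and Ndrg1 rose by 0.44, 0.96 and 0.81. Egln1 was the 1 lower gene, with 59.0, 59.6, 58.0 and 54.3 CPM on HFD and 64.5, 64.8, 76.9 and 71.1 CPM on SD (-0.26 ± 0.08, adjusted p = 0.0161, edgeR), and lost its call without WT SD replicate 3 (0.0907). Pfkfb4 lost its call without WT HFD replicate 1 or 4 or WT SD replicate 1 or 2 (adjusted p of 0.0769 to 0.0985). Slc2a6 and Hif1a were not called (-0.01 ± 0.35 and -0.08 ± 0.17, adjusted p of 0.989 and 0.773, edgeR). Here 11 of 15 adipocyte genes were lower on HFD, at 152 to 211 CPM on HFD, against 346 to 425 CPM on SD, and 15 of 22 immediate early and handling genes were lower, at 16462 to 19006 and 30245 to 37611 CPM. Summed levels on HFD and SD were apart as well for dendritic cell genes, at 40.0 to 63.8 on HFD and 264 to 351 CPM on SD (3 lower of 12), monocyte genes, at 4054 to 4525 on HFD and 7647 to 9996 CPM on SD (3 lower of 10), mast cell genes, at 20.3 to 119 on HFD and 2.39 to 11.7 CPM on SD (6 higher of 6) and T cell genes, at 34.9 to 38.8 on HFD and 10.6 to 18.7 CPM on SD (1 higher and 1 lower of 10). Their part was not tested.

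In WT cells 4 genes were called higher on HFD in both populations (Pfkfb4, Eno2, Pdk1 and Ndrg1), 1 lower in both (Egln1), and 2 in opposite directions (Pgk1 and Ldha, lower on HFD in CD11c+ and higher in CD206+ cells). The difference between the populations was tested in WT cells as the HFD to SD difference in CD11c+ less that in CD206+ cells: 7 of the 34 genes had a higher and 15 a lower value, with 32.4% of all genes called. Pfkp, the platelet-type phosphofructokinase (-1.29 ± 0.19, adjusted p = 1.03e-05), Ldha (-0.83 ± 0.14, 4.83e-05), Pgk1 (-0.76 ± 0.14, 9.74e-05) and Slc2a6 (-2.56 ± 0.48, 0.00016) had the smallest adjusted p among the lower values (edgeR). Pdk1 (1.17 ± 0.18, adjusted p = 1.53e-05), Pfkfb4 (0.73 ± 0.17, 0.00141), Bnip3 (0.72 ± 0.17, 0.00197) and Hk3 (0.84 ± 0.23, 0.0059) led the higher values (edgeR). Of the 16 enzymes 3 had a higher and 8 a lower value. With the replicate number as a block, 26 of the 34 were called, the added ones being Hk2, Pfkfb3, Aldoa and Tpi1.

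**Figure D4:**
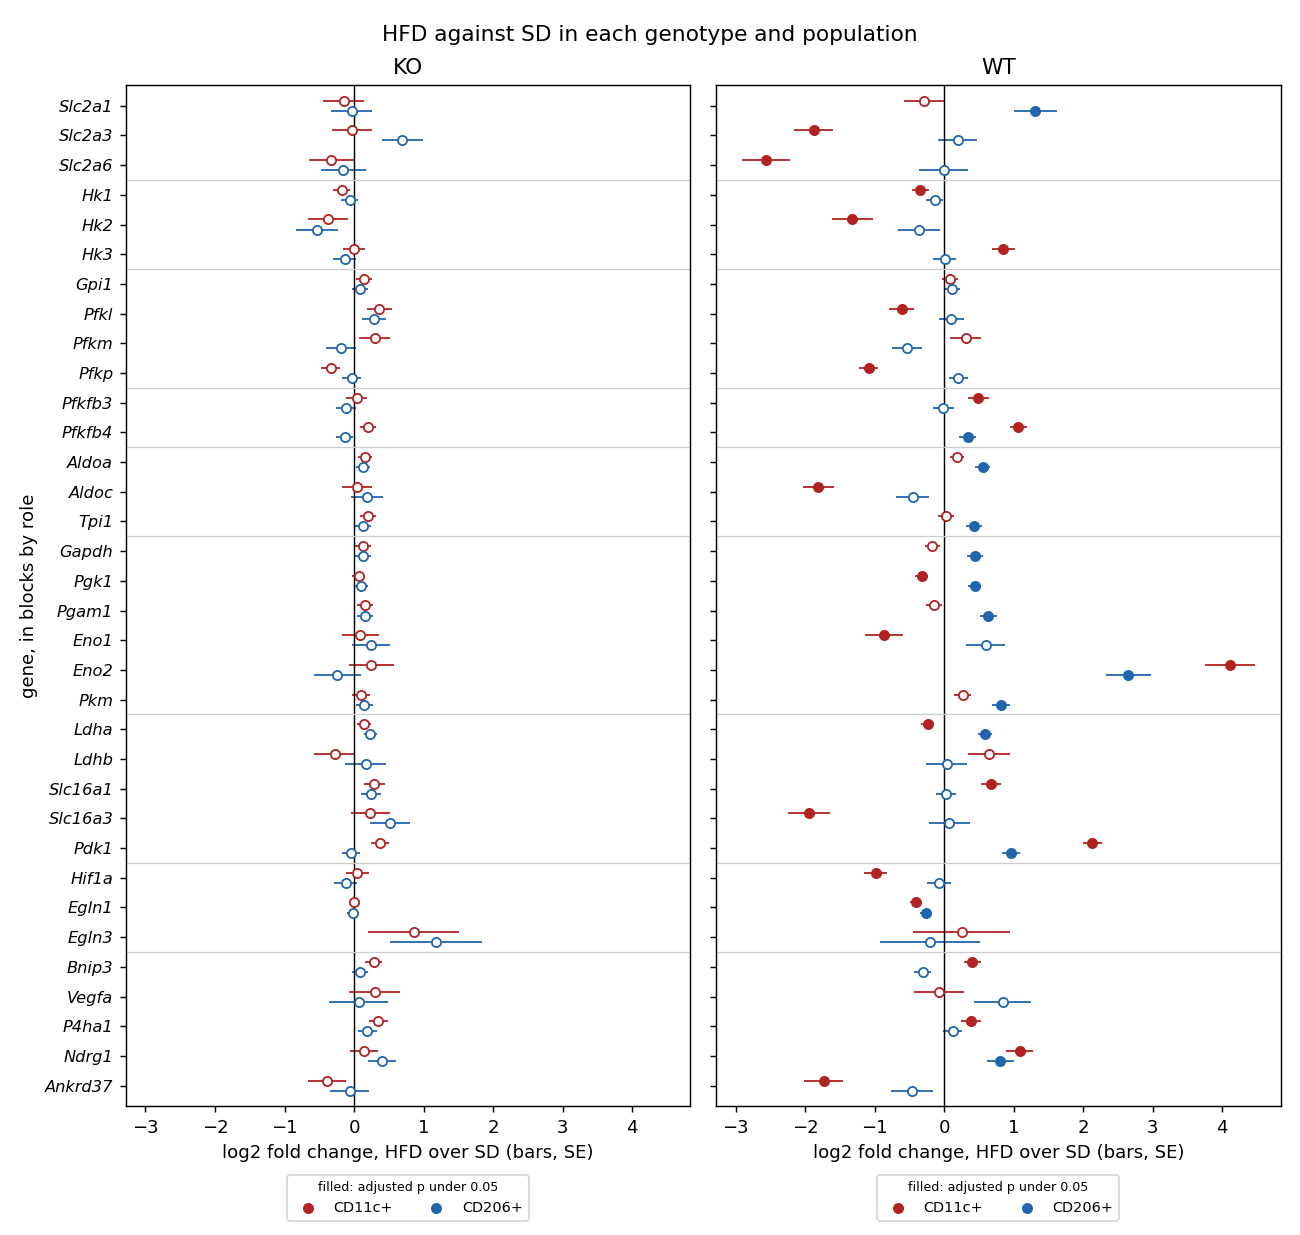
Log2 fold change of HFD over SD for each of the 34 genes in KO and in WT cells of both populations; bars are SE and filled symbols mark an adjusted p under 0.05 (edgeR). No symbol is filled in KO cells, and in WT cells Eno2 and Pdk1 lie furthest to the right in CD11c+ cells while Slc2a6 lies furthest to the left there.

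CD11c+ cells were then set against CD206+ cells of the same genotype and diet. In KO cells on HFD 19 of the 34 genes were higher and 2 lower in CD11c+ cells, with 45.8% of all tested genes called (23.3% higher and 22.5% lower), and on SD 21 were higher and 3 lower, with 51.7% called (25.6% and 26.1%). In WT cells on HFD 13 were higher and 1 lower, with 20.4% called (11.7% and 8.7%), and on SD 21 were higher and 9 lower, with 63.7% called (30.2% and 33.5%). The median log2 fold change of the 34 was 0.68, 0.74, 0.48 and 0.88 in these 4 comparisons, beside -0.05, -0.05, -0.00 and -0.06 over all genes. Libraries did not overlap for 18, 25, 18 and 27 of the 34, as for 37.9%, 44.4%, 27.9% and 54.2% of all genes. In all 4 comparisons 11 genes were called higher in CD11c+ cells: Slc2a1, Pfkp, Aldoa, Tpi1, Gapdh, Pgk1, Pgam1, Pkm, Ldha, Vegfa and Ankrd37. Pfkfb3, the PFKFB enzyme with the strongest kinase activity, was lower in all 4. Of the 16 enzymes 11, 12, 8 and 13 were higher and 0, 1, 0 and 2 lower.

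Among those 11 genes Vegfa had the largest log2 fold change in each of the 4 comparisons. In KO cells on HFD it had 47.6, 8.74, 12.5 and 32.8 CPM in CD11c+, against 4.86, 4.22, 2.32 and 3.54 CPM in CD206+ libraries (2.77 ± 0.40, adjusted p = 2.97e-06, edgeR). KO CD11c+ libraries spread widely, and all stayed above the CD206+ ones. In WT cells on HFD it had 29.4, 23.0, 23.9 and 24.6 CPM in CD11c+, against 6.15, 5.49, 7.36 and 5.99 CPM in CD206+ libraries (2.01 ± 0.39, adjusted p = 0.000351, edgeR). On SD the difference was 2.54 ± 0.40 in KO and 2.93 ± 0.41 in WT cells (adjusted p of 6.9e-06 and 4.25e-07, edgeR). Slc2a1 had 145, 77.7, 58.4 and 101 CPM in CD11c+, against 45.5, 33.6, 17.4 and 46.1 CPM in CD206+ libraries of KO mice on HFD (1.42 ± 0.30, adjusted p = 0.000344, edgeR). In WT mice on SD it had 88.0, 68.7, 65.4 and 91.6 CPM in CD11c+, against 15.5, 11.2, 10.1 and 12.4 CPM in CD206+ libraries (2.67 ± 0.32, adjusted p = 3.15e-08, edgeR). None of these groups overlapped. The difference was 1.53 ± 0.30 in KO cells on SD and 1.07 ± 0.30 in WT cells on HFD.

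Pfkp had 297, 278, 199.7 and 304 CPM in CD11c+, against 109, 91.3, 80.5 and 132 CPM in CD206+ libraries of KO mice on HFD (1.39 ± 0.14, adjusted p = 7.08e-09, edgeR), and 332, 267, 309 and 363 and 97.3, 70.3, 80.9 and 81.9 CPM in those of WT mice on SD (1.94 ± 0.14, adjusted p = 2.04e-12, edgeR). The gap was narrower in WT cells on HFD (0.66 ± 0.14). Gapdh, Pgk1, Tpi1 and Pkm, each alone at its step in this list, followed the same order. Over the 4 comparisons the log2 fold change ran from 0.49 to 1.10 for Gapdh and 0.77 to 1.53 for Pgk1. It ran from 0.42 to 1.08 for Tpi1 and 0.92 to 1.48 for Pkm. For each of them it was smallest in WT cells on HFD. Gpi1, also alone at its step, was not called in WT cells on HFD. Pgam1 averaged 490.5 ± 82.7 CPM in CD11c+, against 191 ± 17.1 CPM in CD206+ cells of KO mice on HFD (1.36 ± 0.12, adjusted p = 5.81e-10, edgeR). Ankrd37, low everywhere, averaged 9.40 ± 1.33 and 1.96 ± 0.523 CPM in WT mice on SD (2.26 ± 0.29, adjusted p = 1.1e-07, edgeR). In WT mice on HFD its call was lost without CD11c+ replicate 2 or CD206+ replicate 1 or 3 (adjusted p of 0.0928, 0.0666 and 0.0701, edgeR).

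Other genes separated the populations only in some conditions. Slc2a6 was higher in CD11c+ cells by 1.13 ± 0.33 in KO cells on HFD, 1.30 ± 0.33 in KO cells on SD and 3.47 ± 0.36 in WT cells on SD, and was not called in WT cells on HFD (0.92 ± 0.34, adjusted p = 0.0556, edgeR). Slc16a3 was higher by 1.47 ± 0.29, 1.76 ± 0.30 and 2.76 ± 0.31 in the same 3 and not called in WT cells on HFD (0.74 ± 0.30, adjusted p = 0.074, edgeR). In WT cells on HFD CD11c+ and CD206+ libraries carry linked replicate numbers, and with the number as a block Slc2a6 (1.06, adjusted p = 0.00343), Slc16a3 (0.73, adjusted p = 0.00826), Gpi1 (0.30, adjusted p = 0.0127) and Hk2 (0.37, adjusted p = 0.0337) were called. In KO cells on SD the block added Hk2 (0.52, adjusted p = 0.00118) and changed no other call. Hif1a was higher in CD11c+ cells in KO mice on HFD (0.62 ± 0.17, adjusted p = 0.00367) and WT mice on SD (0.94 ± 0.17, 2.2e-05; edgeR), and not called in WT mice on HFD (0.03 ± 0.17). In KO mice on SD it was called (0.45 ± 0.17, adjusted p = 0.0264, edgeR), but not without any of 5 libraries (KO SD CD11c+ replicate 3 or 4 and CD206+ replicate 1, 2 or 3; adjusted p of 0.065 to 0.111). Aldoc was higher by 1.51 ± 0.22 in KO cells on HFD, 1.66 ± 0.22 in KO cells on SD and 1.98 ± 0.22 in WT cells on SD. Hk3 was higher in WT cells on HFD alone of the 4, at 179.9 ± 20.3 CPM in CD11c+, against 102 ± 3.33 CPM in CD206+ cells (0.82 ± 0.16, adjusted p = 0.000552, edgeR). Calls that rested on single libraries were those of Pfkl and Egln1 in KO cells on HFD (adjusted p of 0.134 and 0.27 without CD11c+ replicate 1, edgeR), of Pfkl and Hk1 in KO cells on SD (0.0586 and 0.0533 without CD11c+ replicate 1), of Slc2a3 there (0.06 without CD11c+ replicate 4) and Ldhb (0.0565 without CD206+ replicate 1), and of Gpi1 and Pfkl in WT cells on SD (0.183 and 0.067 without CD11c+ replicate 4).

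Fewer genes were lower in CD11c+ cells. Pfkfb3 had 25.4, 24.9, 26.7 and 24.9 CPM in CD11c+, against 59.7, 40.9, 46.3 and 54.0 CPM in CD206+ libraries of KO mice on HFD (-0.98 ± 0.15, adjusted p = 7.63e-06, edgeR). In WT mice on SD it had 17.7, 21.7, 17.5 and 24.8 CPM in CD11c+, against 53.6, 49.1, 44.9 and 51.6 CPM in CD206+ libraries (-1.29 ± 0.15, adjusted p = 3.38e-08, edgeR). Neither pair overlapped. Pfkm, the muscle-type phosphofructokinase, was lower on SD (log2 fold change -0.75 ± 0.22 in KO and -1.37 ± 0.22 in WT cells). Pfkfb4 was lower in KO cells on both diets (-0.30 ± 0.12 on HFD and -0.63 ± 0.12 on SD); on HFD its call was lost without KO HFD CD11c+ replicate 1, 2 or 4 or CD206+ replicate 1 or 3, with an adjusted p of up to 0.32 (edgeR). Bnip3 had 31.6, 32.2, 32.7 and 23.7 CPM in CD11c+, against 55.0, 59.7, 49.1 and 53.2 CPM in CD206+ libraries of WT mice on SD (-0.85 ± 0.12, adjusted p = 8.2e-07, edgeR). In the same mice Pfkfb4 (-0.75 ± 0.12), Slc16a1 (-0.60 ± 0.15), Pdk1 (-0.54 ± 0.13), P4ha1 (-0.49 ± 0.14), Ndrg1 (-0.47 ± 0.20) and Eno2 (-1.0 ± 0.38) were lower too. Eno2 lost that call without CD11c+ replicate 1 or 4 or CD206+ replicate 1, 2 or 4 (adjusted p of 0.0551 to 0.0674, edgeR), and Ndrg1 without CD11c+ replicate 2 or 3 or CD206+ replicate 1 or 4 (0.0588 to 0.183). Pdk1 was higher in CD11c+ cells of WT mice on HFD (0.63 ± 0.13, adjusted p = 0.000591, edgeR).

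Dendritic cell genes were higher in CD11c+ cells in the 4 comparisons, 10, 10, 7 and 7 of 12 with 0, 1, 0 and 0 lower, in the order KO on HFD, KO on SD, WT on HFD and WT on SD. In KO mice on HFD their summed level was 139 to 406 CPM in CD11c+, against 82.9 to 151 CPM in CD206+ libraries, and in WT mice on SD 348 to 761 and 264 to 351 CPM. Flt3 averaged 14.9 and 0.438 CPM in KO mice on HFD. Endothelial genes were lower in CD11c+ cells for 9, 10, 3 and 12 of 12, adipocyte genes for 12, 12, 0 and 13 of 15, and immediate early and handling genes for 12, 15, 17 and 11 of 22, the last at 11572 to 16466 CPM in CD11c+, against 19602 to 23002 CPM in CD206+ libraries of KO mice on HFD. The summed stromal level was 3803 to 7755 CPM in CD11c+ and 1417 to 2182 CPM in CD206+ libraries of KO mice on HFD, and 9019 to 18314 CPM in CD11c+ and 1619 to 2727 CPM in CD206+ libraries of WT mice on SD. The monocyte level was 6056 to 10079 CPM in CD11c+ and 5811 to 7602 CPM in CD206+ cells of KO mice on HFD, and 13401 to 23158 CPM in CD11c+ and 7647 to 9996 CPM in CD206+ libraries of WT mice on SD. In WT mice on HFD the stromal level overlapped and the monocyte level was 2526 to 3451 CPM in CD11c+ and 4054 to 4525 CPM in CD206+ libraries. In WT mice on SD the macrophage, T cell, neutrophil, mast cell and red cell sums did not overlap between the populations either. Their part in the differences between the populations was not tested.

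Whether loss of A20 acted differently in the populations was tested as the KO to WT difference in CD11c+ less that in CD206+ cells. On HFD 4 of the 34 genes had a higher value and none a lower one, with 4.36% of all genes called: Pgam1 (0.65 ± 0.16, adjusted p = 0.0203), Tpi1 (0.65 ± 0.16, 0.021), Pfkp (0.73 ± 0.19, 0.0285) and Pgk1 (0.48 ± 0.14, 0.0432; edgeR). All 4 were higher in KO than in WT CD11c+ cells and were not called in CD206+ cells. The count fell to 2 without KO HFD CD11c+ replicate 1 or 2, KO HFD CD206+ replicate 2 or 3, WT HFD CD11c+ replicate 1 or WT HFD CD206+ replicate 4, and rose to 8 with the replicate number as a block. On SD 1 gene had a higher value, Bnip3 (0.63 ± 0.17, adjusted p = 0.0252), and 1 a lower one, Slc2a6 (-2.17 ± 0.47, 0.00443; edgeR), with 6.57% of all genes called. That count was 1 without KO SD CD11c+ replicate 2, 3 or 4, KO SD CD206+ replicate 3 or 4 or WT SD CD206+ replicate 2, 4 without WT SD CD11c+ replicate 4, and 7 with the block.

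For each set of related carriers or enzymes, the share of each gene was computed from CPM per kilobase. These shares are a description and were not tested. They are shares of transcripts. GLUT6, a carrier of lysosomal membranes, need not serve the same step as GLUT1 and GLUT3. Slc2a6 made up 80.4% ± 3.52 (SD, n = 4) of the 3 glucose transporters in KO CD11c+ cells on HFD, against 40.6% ± 2.54 in WT, where Slc2a1 led with 56.1% ± 2.71. In CD206+ cells on HFD the Slc2a6 share was 82.1% ± 1.98 in KO and 38.3% ± 14.2 in WT. On SD it was 81.8% ± 3.53 in KO and 74.1% ± 4.79 in WT CD11c+ cells, and 84.4% ± 2.79 and 58.7% ± 8.14 in CD206+ cells. On HFD the lactate carriers shifted alongside. Slc16a3 made up 86.0% ± 5.08 of the pair in KO and 52.1% ± 7.57 in WT CD11c+ cells, and 68.9% ± 6.50 and 40.7% ± 6.73 in CD206+ cells. On SD the pair showed little such shift in CD11c+ cells. Slc16a3 and Slc16a1 there averaged 37.6 and 5.40 CPM per kilobase in KO, and 39.3 and 5.61 in WT cells. In CD206+ cells on SD they averaged 11.1 and 5.77 in KO, and 5.79 and 8.52 in WT cells. Enolase differed most by diet in WT cells: Eno2 was 37.8% ± 5.82 of the pair in WT CD11c+ cells on HFD and 2.46% ± 1.70 on SD, against 6.70% ± 2.06 in KO cells on HFD, with the caution on the low Eno1 counts given above. Hk3 had the largest hexokinase share in 7 groups, at 58.1% ± 1.84 to 70.5% ± 2.75. In WT CD11c+ cells on SD its lead (47.6% ± 7.27, against 42.6% ± 6.07 for Hk1) rested on replicate 4, without which the shares were 44.5% for Hk3 and 45.2% for Hk1. There Hk3 had 22.2, 24.4, 24.6 and 48.2 and Hk1 27.8, 21.4, 23.6 and 29.4 CPM per kilobase in the 4 libraries, and without scaling by length Hk1 made up 49.0% ± 5.68 and Hk3 38.0% ± 6.90. Pfkp had the largest phosphofructokinase share in all 8 groups, at 52.3% ± 6.35 to 79.4% ± 2.96. Aldoa, Ldha and Egln1 were at least 98.3% of their sets in every group.

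**Figure D5:**
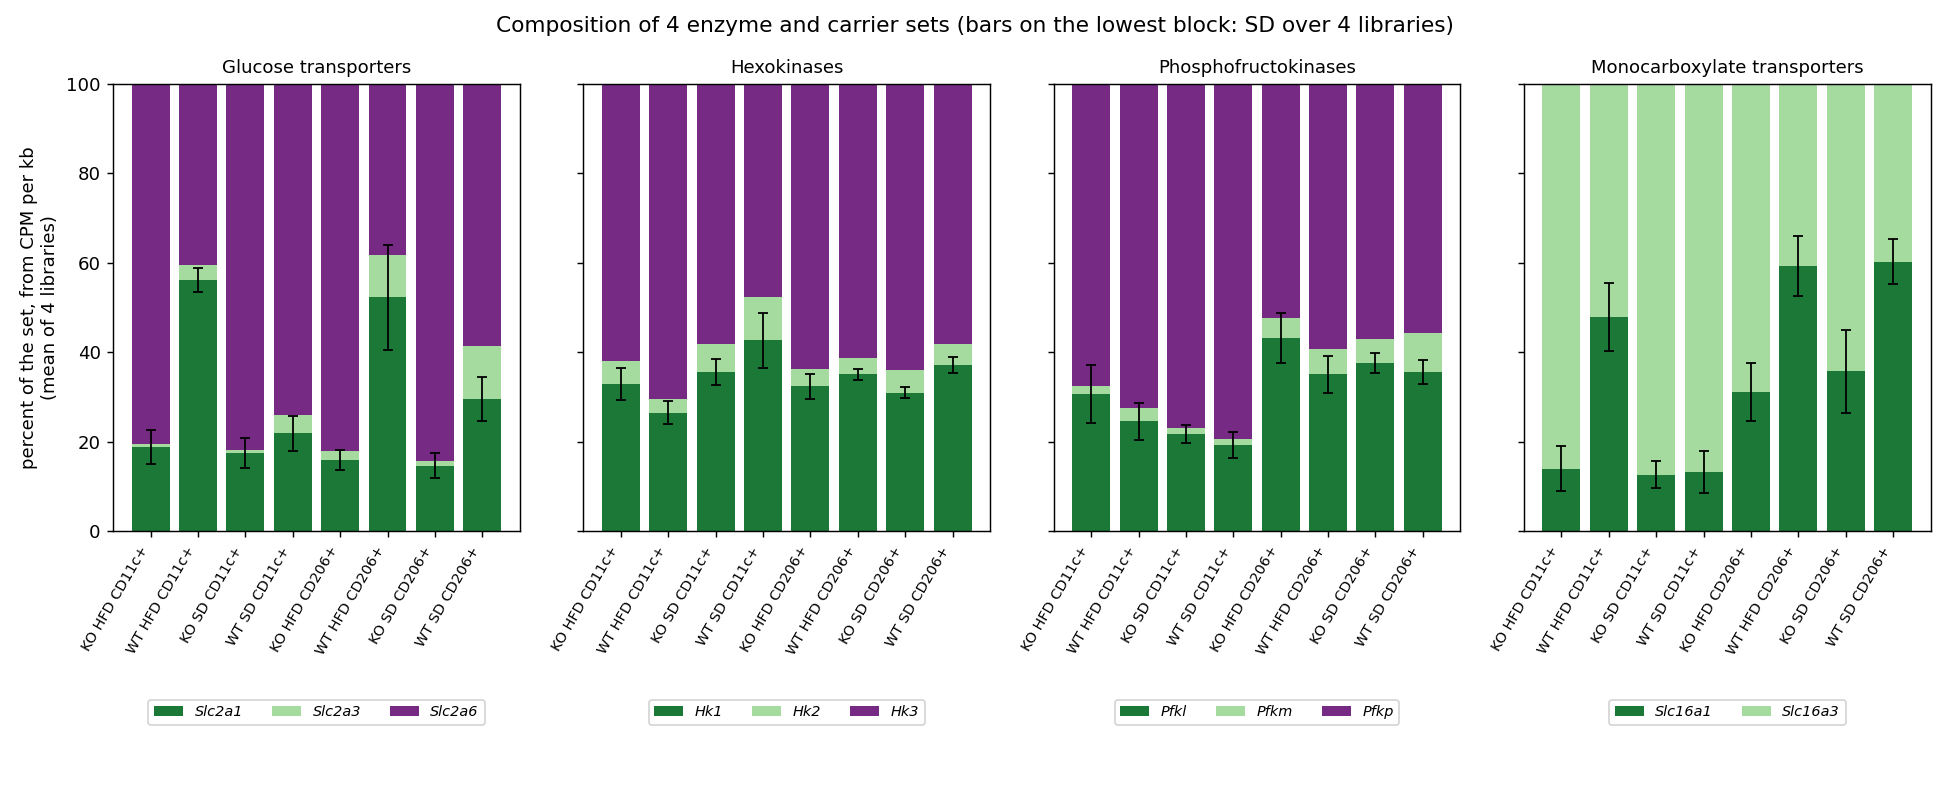
Share of each gene within its set of carriers or enzymes, in percent of the set's CPM per kilobase, for the 8 groups. The sets drawn are glucose transporters, hexokinases, phosphofructokinases and monocarboxylate transporters. Stacked bars are means of 4 libraries. The Slc2a6 and Slc16a3 shares are larger in KO than in WT cells on HFD in both populations.

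Other genes of the same pathways were counted from lists of hypoxia targets, HIF regulators and neighbouring metabolic routes. Of 28 other hypoxia targets tested, 7 were higher and 9 lower in KO than in WT CD11c+ cells on HFD, 3 and 4 in CD206+ cells on HFD, 4 and 6 in CD11c+ cells on SD, and 4 and 9 in CD206+ cells on SD. Over all genes tested 18.6% were called higher and 19.4% lower in the first of these, 10.5% and 11.3% in the second, 13.2% and 13.6% in the third, and 11.8% and 12.7% in the fourth, and the counts of the lists below are to be read beside these shares. Ak4, a mitochondrial adenylate kinase, rose in KO CD11c+ cells on HFD (7.13 against 0.411 CPM; 4.09 ± 0.75, adjusted p = 6.44e-05, edgeR), while Lox, a collagen cross-linking enzyme (-2.0 ± 0.61), fell to 1.37 CPM in KO, against 5.53 CPM in WT cells. In CD206+ cells on HFD Hilpda, a lipid droplet protein, fell to 17.3 CPM in KO, against 39.9 CPM in WT cells (-1.21 ± 0.19, adjusted p = 1.68e-05, edgeR), and Mxi1, an antagonist of MYC, to 31.8, against 63.3 CPM (-1.0 ± 0.14, adjusted p = 2.18e-06, edgeR). Bhlhe40, a transcription repressor, was higher in CD11c+ than in CD206+ cells by 2.19 to 3.83 over the 4 comparisons. It fell in WT CD11c+ cells on HFD to 109 CPM, against 455 CPM on SD (-2.07 ± 0.26, adjusted p = 1.5e-07, edgeR), where 11 of the 28 were higher and 5 lower (23.8% and 22.6% of all genes).

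Among 14 regulators of HIF, 3 were higher and 2 lower in KO than in WT CD11c+ cells on HFD, and none was called in CD206+ cells. Epas1, which encodes HIF-2 alpha, fell to 4.34 CPM in KO, against 13.7 CPM in WT cells (-1.65 ± 0.33, adjusted p = 0.00019, edgeR), and was lower in KO on SD in both populations (-1.44 ± 0.33 and -1.37 ± 0.31). Vhl, the ubiquitin ligase subunit that removes HIF-1 alpha, rose by 0.52, and Hif1an, which blocks its activity, fell by 0.44. Of 13 genes on the route of pyruvate into mitochondria, 5 rose in KO CD11c+ cells on HFD, among them Pdk3, a kinase of the same family as Pdk1 (69.9 against 36.4 CPM; 0.94 ± 0.11, adjusted p = 3.04e-08, edgeR), the phosphatase Pdp2 (0.67 ± 0.20) and the pyruvate carrier Mpc1 (0.54 ± 0.13), and none was called in CD206+ cells on HFD. Pdk4, another of these kinases, was lower in KO on SD, with log2 fold changes of -1.96 ± 0.56 in CD11c+ and -2.25 ± 0.51 in CD206+ cells. Of 21 further genes of glycolysis and glycogen, 2 rose and 3 fell in KO CD11c+ cells on HFD, where Pygl, a glycogen phosphorylase, had 89.3 CPM in KO, against 35.8 CPM in WT cells (1.32 ± 0.25, adjusted p = 0.000107, edgeR). It was also higher in KO on SD (1.12 ± 0.25 in CD11c+ and 0.86 ± 0.25 in CD206+ cells).

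Of 8 genes of the pentose phosphate pathway, which branches from glucose phosphate, none was called in KO against WT CD11c+ cells on HFD, beside 38% of all genes, 2 rose in CD11c+ and 1 in CD206+ cells on SD, and 2 fell in CD206+ cells on HFD, Tkt (-0.43 ± 0.11) and Pgd (-0.39 ± 0.13), a transketolase and the oxidative decarboxylase. Over all genes 26.8%, 24.5% and 21.8% were called in these last 3 comparisons. Between the populations 6, 6, 5 and 7 of 8 were higher in CD11c+ cells and 1, 1, 0 and 1 lower, beside 23.3%, 25.6%, 11.7% and 30.2% of all genes higher. Tkt averaged 333 CPM in CD11c+, against 153 CPM in CD206+ cells of KO mice on HFD (1.12 ± 0.11, adjusted p = 3e-09, edgeR). In WT CD206+ cells 5 of 8 rose on HFD, beside 14.2% of all genes, with Pgd at 233 CPM on HFD, against 149 CPM on SD (0.65 ± 0.13, adjusted p = 0.000554, edgeR). Of 11 regulators of MYC and mTOR, none was higher and 4 were lower in KO than in WT CD11c+ cells on HFD. Myc stood at 27.6 CPM in KO and 48.0 CPM in WT cells (-0.80 ± 0.15, adjusted p = 8.72e-05, edgeR), and was lower in KO CD206+ cells on HFD (-0.78 ± 0.15) and SD (-1.23 ± 0.15) as well. Rptor, the scaffold of mTOR complex 1, fell by 0.67 in KO CD11c+ and 0.48 in KO CD206+ cells on HFD. Between the diets in KO cells no gene of these lists was called in either population (edgeR).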

How the data were processed

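RNA of sorted macrophages was sequenced in bulk, and the authors deposited a table of read counts per gene for each of 32 libraries (unit: counts, not normalized). Per the submitters' processing notes, the tools were TopHat2 2.1.0, SAMtools 0.1.18, Trimmomatic 0.35 and FastQC 0.11.4, and the build mm10; how reads were counted, by which annotation and with which strand setting, is not given here, so genes overlapping on the other strand cannot be told apart. Of the 24421 genes, those past edgeR's filter at a minimum count of 10 were kept; 5 entries that name no gene (5.16 to 11.1% of reads for those outside genes, 0.992 to 1.48% for ambiguous ones) were left out. One model with 8 group means over all 32 libraries was fitted by edgeR 4.0.16 (quasi-likelihood, TMM) in R 4.3.3, with Benjamini-Hochberg adjustment over all genes, and tested on simulated data. Interactions are differences of these contrasts. No pair of replicate libraries was within counting noise of one another.

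The 34 genes, the other lists and the tests were chosen with earlier results of these data known. Named per comparison were at most 6 higher and 6 lower genes, by size of change, and Gapdh, Pgk1, Tpi1, Pkm and Hif1a; in interactions at most 4 a direction, by p, and at most 3 of each other list. A gene of those lists that this rule names is not reported here. Lengths and coordinates are from GENCODE M21 and promoters from RefSeq on GRCm38.p6. Alternatives were RLE size factors, no filter, DESeq2 1.42.0, a fit of the compared groups alone, each library left out, the replicate number as a block, and isozyme shares without length scaling. Replicate numbers from the labels paired libraries (correlation of deviations over 0.1 in all 4 pairs) between the populations in KO mice on SD (0.143 to 0.323), WT mice on HFD (0.228 to 0.468) and WT mice on SD (0.143 to 0.285).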

Additional observations from a re-analysis of the deposited data

Results flagged for a closer look

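Of the 272 sets of 4 libraries (34 genes in 8 groups), 26 held a library whose gap to its nearest neighbour, relative to the range of the set, passed Dixon's critical value. Chance passes about 5% of such sets. KO SD CD206+ replicate 4 stood apart for Slc2a1 at 74.1 CPM (the other 3 at 22.9 to 25.6), Pfkp at 135 CPM (the other 3 at 93.5 to 98.6), Eno1 at 13.9 CPM (the other 3 at 5.45 to 6.85) and Slc16a1 at 22.7 CPM (the other 3 at 26.3 to 26.8). In WT SD CD11c+ replicate 4 the levels that stood apart were Slc2a6 at 278 CPM (the other 3 at 146 to 153), Hk3 at 162 CPM (the other 3 at 74.4 to 82.3), Pfkfb4 at 53.7 CPM (the other 3 at 41.0 to 42.9) and Bnip3 at 23.7 CPM (the other 3 at 31.6 to 32.7). For KO HFD CD11c+ replicate 1 these were Pfkl at 166 CPM (the other 3 at 83.6 to 94.8), Pdk1 at 50.05 CPM (the other 3 at 34.4 to 35.8), Hif1a at 443 CPM (the other 3 at 261 to 275) and P4ha1 at 158 CPM (the other 3 at 84.6 to 89.3). WT SD CD11c+ replicate 2 stood apart for Slc2a3 at 20.9 CPM (the other 3 at 15.2 to 16.1) and Vegfa at 41.4 CPM (the other 3 at 21.1 to 22.1). In WT HFD CD206+ replicate 3 the levels that stood apart were Slc2a6 at 32.3 CPM (the other 3 at 10.6 to 11.3) and P4ha1 at 85.2 CPM (the other 3 at 71.7 to 73.4). For WT HFD CD11c+ replicate 4 these were Hk2 at 16.9 CPM (the other 3 at 11.5 to 12.4) and Slc16a1 at 41.6 CPM (the other 3 at 39.0 to 39.3). KO HFD CD11c+ replicate 4 stood apart for Ndrg1 at 18.6 CPM (the other 3 at 12.0 to 13.1) and Ankrd37 at 5.29 CPM (the other 3 at 6.67 to 6.73). A single gene stood apart in each of KO SD CD11c+ replicate 4, Slc2a1 at 135 CPM (the other 3 at 93.8 to 99.6), KO SD CD206+ replicate 3, Pfkm at 8.34 CPM (the other 3 at 6.10 to 6.45) and WT SD CD206+ replicate 4, Pfkm at 10.3 CPM (the other 3 at 8.52 to 8.65). A single gene stood apart in each of WT SD CD206+ replicate 3, Eno2 at 0.476 CPM (the other 3 at 0.861 to 0.926), WT SD CD206+ replicate 1, Ldha at 389 CPM (the other 3 at 317 to 329) and WT HFD CD206+ replicate 1, Ldhb at 1.90 CPM (the other 3 at 4.37 to 4.53). Results that change when these libraries are left out are named with the comparisons they belong to.

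Differences between effects were flagged from the interaction terms (log2 scale, edgeR's quasi-likelihood test, at most 4 genes a direction, by p). For the effect of the genotype on HFD less that on SD, these were in CD11c+ cells Aldoc at 1.85 (adjusted p = 2.68e-05), Slc16a3 at 2.18 (adjusted p = 0.000139), Slc2a6 at 2.24 (adjusted p = 0.00042), Slc2a3 at 1.85 (adjusted p = 0.000692), Pdk1 at -1.75 (adjusted p = 2.68e-08), Eno2 at -3.86 (adjusted p = 4.36e-07), Pfkfb4 at -0.87 (adjusted p = 0.000249) and Hk3 at -0.85 (adjusted p = 0.00571). In CD206+ cells they were Eno2 at -2.89 (adjusted p = 0.000105), Pdk1 at -1.0 (adjusted p = 0.000387), Pkm at -0.67 (adjusted p = 0.0132) and Slc2a1 at -1.35 (adjusted p = 0.0385). For the effect of the genotype in CD11c+ less that in CD206+ cells, they were on HFD Pgam1 at 0.65 (adjusted p = 0.0203), Tpi1 at 0.65 (adjusted p = 0.021), Pfkp at 0.73 (adjusted p = 0.0285) and Pgk1 at 0.48 (adjusted p = 0.0432), and on SD Bnip3 at 0.63 (adjusted p = 0.0252) and Slc2a6 at -2.17 (adjusted p = 0.00443). For the effect of HFD over SD in CD11c+ less that in CD206+ WT cells, they were Pdk1 at 1.17 (adjusted p = 1.53e-05), Pfkfb4 at 0.73 (adjusted p = 0.00141), Bnip3 at 0.72 (adjusted p = 0.00197), Hk3 at 0.84 (adjusted p = 0.0059), Pfkp at -1.29 (adjusted p = 1.03e-05), Ldha at -0.83 (adjusted p = 4.83e-05), Pgk1 at -0.76 (adjusted p = 9.74e-05) and Slc2a6 at -2.56 (adjusted p = 0.00016). Every value has 4 libraries in each of the 4 groups it joins.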

How the results depend on the processing

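Of 238 calls on the 34 genes over 17 comparisons and interactions, 185 held under every alternative run, 53 missed the threshold under at least 1, and no called value changed sign; 59 values that were not called passed it under at least 1. In KO against WT CD11c+ cells on SD, 11 genes were called, 7 when only the compared groups were fitted, and 7 to 14 with 1 library left out. In KO cells between the diets, none of the 34 was called under any alternative run. Over all genes, 1 was called in KO CD11c+ cells (51 with DESeq2, 0 when only the compared groups were fitted, 0 with the replicate number as a block, and 0 to 80 with 1 library left out, the last without KO HFD CD11c+ replicate 1) and 0 in KO CD206+ cells (1 with no filter on low counts, 18 with DESeq2, 0 to 7 with 1 library left out). For the genotype by diet interaction in CD206+ cells, 5 of the 34 were called, and 3 to 7 with 1 library left out. For the genotype by population interaction on HFD, 4 of the 34 and 586 of all genes were called, with the replicate block 8 and 1209, and with 1 library left out 2 to 5 and 306 to 700. On SD 2 of the 34 and 884 of all genes were called, with the block 7 and 1612, and with 1 library left out 1 to 4 of the 34. The cause of these shifts was not tested. Only some replicate numbers pair libraries: those of the populations in KO mice on SD and in both groups of WT mice, where the block changed no calls of those comparisons but the 5 named in the text. In KO mice on HFD 2 of 4 pairs of the populations were also linked (0.333 for replicate 3 and 0.202 for replicate 4), so whether the numbers pair them is not settled. Outside the comparisons with all 4 pairs linked, the block left between 0 and 24 of the 34 called. Same-numbered libraries there were the best match of one another for 0 to 2 of 4 pairs. With counts not scaled by length, 98 of 168 mean isozyme shares moved by more than their SD. Leaving out each library in turn, chosen after seeing the data, moved no share by more than its SD. With 4 libraries, dropping 1 cannot move a mean that far, so this outcome was fixed in advance and says nothing of stability. The leading gene did change in places: Hk1 led Hk3 without WT SD CD11c+ replicate 4, and Slc16a1 led Slc16a3 without WT HFD CD11c+ replicate 2. Genes of a few CPM, such as Egln3, Eno2 and Aldoc, are limited by depth.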
